A study of Mus musculus with 2 samples.

Results

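The TNF receptor superfamily members followed here are 9 receptors that T cells can carry, *Tnfrsf4*, *Tnfrsf18*, *Tnfrsf9*, *Cd27*, *Tnfrsf8*, *Tnfrsf14*, *Tnfrsf1a*, *Tnfrsf1b* and *Tnfrsf25*. They were taken by gene symbol from the 23282 gene rows of the count tables, and each symbol stood on a single row. RNA-seq was done on Th17 cells differentiated in culture, with 1 library for control cells and 1 for RV-Cre-transduced cells. Naïve CD4 T cells from the spleen of female Fak fl/fl mice received either the empty retrovirus MIEG3 (control) or RV-Cre, whose Cre recombinase deletes the floxed part of *Fak* in the cells it enters. The genotype label of the control reads WT, although its title gives Fak fl/fl cells. Cells given Cre while keeping *Fak* were not analysed here, so Cre expression and the loss of *Fak* cannot be told apart, and the sources used here do not say how many mice a library represents. Both cultures had plate-bound anti-CD3ε at 10 μg/ml and soluble anti-CD28 at 5 μg/ml. Both also had IL-6 at 50 ng/ml, TGFβ1 at 1 ng/ml, IL-1β at 2 ng/ml, TNFα at 1 ng/ml, and anti-IFNγ and anti-IL-4 at 5 μg/ml each for 3 days. TNFα, a ligand of *Tnfrsf1a* and *Tnfrsf1b*, was thus present in both, and cells positive for the GFP of the vector were sorted.

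Receptors of this superfamily bind trimeric ligands through cysteine-rich repeats outside the cell, and they signal by gathering adaptors inside it. Most members of the group recruit TRAF proteins, which lead to IκB kinase and NF-κB and support the survival and division of activated T cells. *Tnfrsf1a* and *Tnfrsf25* carry a death domain instead and start from the adaptor TRADD. On T cells, OX40 (*Tnfrsf4*), GITR (*Tnfrsf18*) and CD137 (*Tnfrsf9*) are known as costimulatory receptors induced by activation and abundant on regulatory T cells, whereas CD27 is already present on naïve T cells. The study asked how FAK acts in Th17 cells and followed NF-κB, the pathway these receptors feed.

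The libraries held 13799264 and 12305010 counted reads for control and RV-Cre, in this order here and below. *Ptk2*, the symbol of *Fak* in the tables, had 110 and 31 reads, giving a normalized ratio of 0.318 (95% interval 0.206 to 0.478). The kit reads transcripts near their 3′ end and the sources used here do not place the deleted part, so this count does not measure the deletion itself. The T cell markers *Cd3e*, *Cd3d*, *Cd3g*, *Cd247*, *Cd4*, *Lck*, *Cd5* and *Thy1* were all detected and summed to 1566 and 2119 CPM (reads scaled to a library total of 1e+06). The 6 B cell markers summed to 3.70 and 9.51 CPM, with *Pax5* at 0 in both libraries. The erythroid markers summed to 3.19 and 19.2 CPM, the 8 myeloid markers to 21.5 and 33.9 CPM and the 7 CD8 T and NK cell markers to 87.1 and 126.5 CPM. All of these sums were higher in the RV-Cre library. At 0 in one library were *Ncr1*, *Adgre1* and *Hba-a2* (control) and *Klrb1c* (RV-Cre). *Rn45s*, *Malat1*, *Gapdh* and *Actb*, taken as signs of RNA quality, held 9.70% and 16.7% of all reads, most of them *Rn45s*. The part of these genes in the receptor values was not tested, and in such bulk samples a changed share of cells and a changed amount of RNA per cell cannot be told apart.

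In the GENCODE annotation of GRCm38, the build named as mm10 in the submitters' processing notes, 7 of the 9 members are on chromosome 4 within 10.8 Mb, and *Cd27* and *Tnfrsf1a* are on chromosome 6 within 0.130 Mb. *Tnfrsf4* (chr4:156013843-156016612) and *Tnfrsf18* (chr4:156026164-156028895) are neighbours on the forward strand, 9.55 kb apart. *Tnfrsf1b* and *Tnfrsf8* are neighbours on the reverse strand, 20.3 kb apart. *Cd27* (chr6:125232622-125237010) is on the reverse strand. The chromosome 4 members included those with the highest and the lowest ratios among the 7 abundant members.

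Promoter sequence is shown for members at both ends of the range of ratios, because the study's question concerns NF-κB. The bases come from the RefSeq windows of GRCm38.p6 and lie before the annotated start, written 5′ to 3′ on the strand of the gene. Capitals mark a loose form of the NF-κB element, 3 G, any 5 bases and 2 C, on either strand, so that the other strand shows 2 G, any 5 bases and 3 C. Overlapping matches are joined in one run of capitals. For *Tnfrsf18* only the bases outside its exons are given, and for *Tnfrsf9* a 30-base stretch from its second annotated start.
Tnfrsf18, chr4:156026072-156026163, forward strand: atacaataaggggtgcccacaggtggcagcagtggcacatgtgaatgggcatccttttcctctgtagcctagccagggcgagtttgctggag
Cd27, chr6:125237028-125237277, reverse strand: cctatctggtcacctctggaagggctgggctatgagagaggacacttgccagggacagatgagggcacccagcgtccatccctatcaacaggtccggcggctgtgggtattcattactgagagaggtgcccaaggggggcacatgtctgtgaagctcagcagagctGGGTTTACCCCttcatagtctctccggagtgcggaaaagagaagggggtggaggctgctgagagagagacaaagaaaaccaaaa
Tnfrsf25, chr4:152115684-152115933, forward strand: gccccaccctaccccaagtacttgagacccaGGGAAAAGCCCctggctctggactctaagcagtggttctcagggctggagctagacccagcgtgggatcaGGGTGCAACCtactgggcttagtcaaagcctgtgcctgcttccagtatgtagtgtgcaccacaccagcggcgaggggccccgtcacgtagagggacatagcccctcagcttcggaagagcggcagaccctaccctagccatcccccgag
Tnfrsf1b, chr4:145246871-145247120, reverse strand: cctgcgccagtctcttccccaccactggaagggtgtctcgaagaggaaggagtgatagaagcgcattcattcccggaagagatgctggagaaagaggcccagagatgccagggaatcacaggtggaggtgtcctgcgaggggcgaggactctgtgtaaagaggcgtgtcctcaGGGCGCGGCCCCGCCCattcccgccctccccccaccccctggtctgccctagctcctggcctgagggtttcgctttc
Tnfrsf9, chr4:150927946-150927975, forward strand: cagagcagctGGGGATTTCCCaggaggccc

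RefSeq starts gave 11 windows of 250 bases for the 9 members, and 7 members had the letters in at least 1 window. The same letters were found in 45.8% of all 32851 such windows and for 48.7% of the 27025 genes with a window, so they are common. *Tnfrsf18* and *Tnfrsf4* had 0 matches in their windows, *Cd27* had 2, and *Tnfrsf25* and *Tnfrsf1b* had 3 each in the windows shown. In *Tnfrsf9* the match GGGGATTTCC began 43 bases before the second start. Several windows hold exons, among them an *Sdf4* exon in that of *Tnfrsf4* and a *Tnfrsf9* exon in that of the second *Tnfrsf9* start. For *Tnfrsf4* and *Cd27*, the bases after the start used were not found as 1 stretch in a GENCODE transcript of the gene. The matches describe these letters only, and reads from the 3′ end do not show which start was used.

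Counts were scaled by the TMM method, and log2 was taken after adding 1. Genes with a log2 value of 4 or more (15 normalized reads) in either library were kept, and a difference of 2-fold or more on this log2 scale, which understates the change of low genes, was taken as a change. With 1 library per condition there is no replicate check and no p-value. The 95% intervals are exact Clopper-Pearson intervals of the read split. They reflect sampling of reads alone, so they set one library against the other and say nothing of variation between cultures. Of the 9 members, 7 passed the minimum. Of these, *Tnfrsf18* and *Cd27* (2 genes) were higher by 2-fold or more in RV-Cre-transduced cells, and 0 were lower by as much. Among all 12112 genes past the minimum, 14.2% were higher and 12.3% lower by 2-fold or more, and a list of 7 is too short to be set apart from that background. The median log2 ratio was 0.42 over the 7 members and also over all 9, against -0.01 over all genes past the minimum. The 8 T cell markers named above had a median of 0.36, with 7 above 0 and 1 below. Of these markers *Cd3e* and *Cd3d* were at least 2-fold higher, and 0 were lower by as much. All 7 members past the minimum had a mean log2 value of at least 7. Among the 7934 genes of that level, a limit chosen after the data were seen, 4.39% were higher and 8.86% lower by 2-fold or more.

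**Figure D1:**
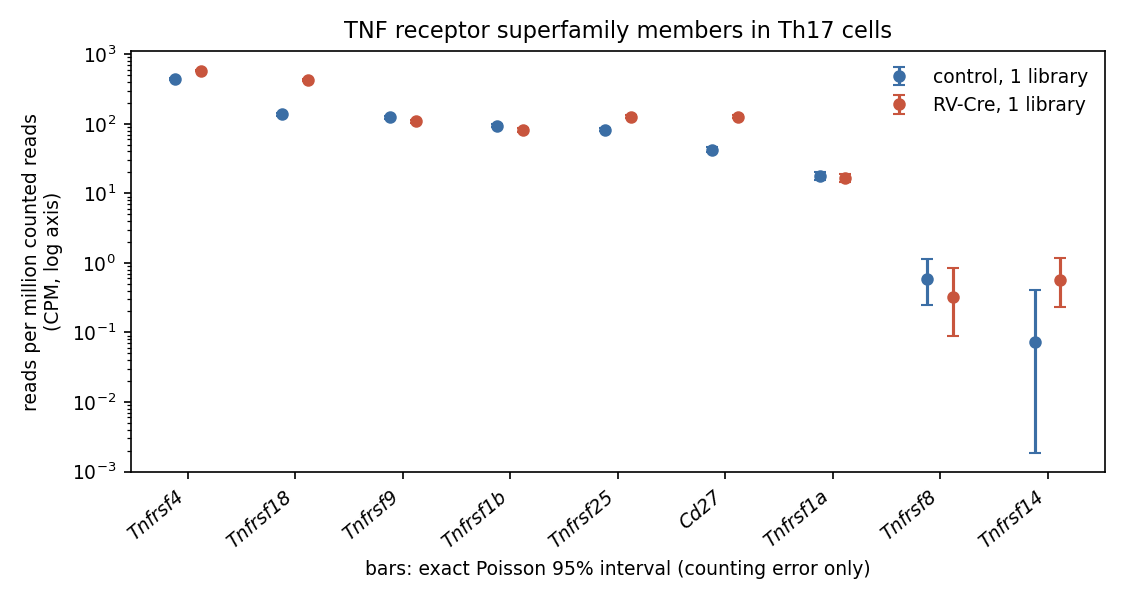
Level of each member in the control library (blue) and the RV-Cre library (red), in CPM on a log axis; bars are exact Poisson 95% intervals and are hidden by the points where narrow. *Tnfrsf18* and *Cd27* show the widest gaps among the 7 abundant members, and *Tnfrsf8* and *Tnfrsf14* lie below 1 CPM in both libraries.

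GITR, encoded by *Tnfrsf18*, is a costimulatory receptor that is prominent on regulatory T cells. It had 1884 control and 5285 RV-Cre reads, or 136.5 and 429.5 CPM. The intervals of these levels, 130.4 to 142.8 and 418.0 to 441.2 CPM, lie far apart. The normalized ratio was 3.17 (95% interval 3.00 to 3.34). It ranked 59 by log2 ratio among the 7934 abundant genes. Of the 606 genes whose mean log2 value lay within 0.5 of its own, itself included, 3.30% were at least 2-fold higher.

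The genes of that level with the nearest log2 ratio over the 2 libraries were *Il17ra*, *Il21r* and *Pmel*. *Il17ra*, a receptor chain for IL-17, had 2157 and 6518 reads and a log2 ratio of 1.77, which differs from that of *Tnfrsf18* by 0.11. *Il21r*, the receptor of IL-21, had 2156 and 5485 reads and a log2 ratio of 1.52. *Pmel*, a melanosome gene, had 2828 and 6855 reads and a log2 ratio of 1.45. With only 2 libraries this likeness describes a pair of numbers per gene.

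The antisense gene *Gm16008* overlaps *Tnfrsf18* on the opposite strand and shares 414 exonic bases with it, 80 of them in the last 500 bases. *Gm16008* has no row of its own in the count tables, and whether the counting used strand is not given. Reads of the antisense gene therefore cannot be told apart from those of *Tnfrsf18*.

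CD27, which binds CD70 and supports the survival of naïve and early activated T cells, had 583 and 1560 reads. These are 42.2 and 126.8 CPM, with intervals of 38.9 to 45.8 and 120.6 to 133.2 CPM. The ratio was 3.02 (95% interval 2.74 to 3.33), within the counting error of that of *Tnfrsf18*, and its rank among the abundant genes was 68. *Tnfrsf18* had 3.23 reads for each *Cd27* read in control cells and 3.39 after RV-Cre transduction, with intervals of 2.94 to 3.55 and 3.20 to 3.59 that overlap. *Vamp1*, a vesicle fusion gene whose span covers *Cd27* on the opposite strand without shared exons, had 90 and 221 reads, giving a ratio of 2.77 (95% interval 2.16 to 3.58). In RefSeq the long non-coding gene *E130112N10Rik* also spans *Cd27* and had 2 and 0 reads. Reads assigned across these overlaps were not tested.

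OX40, encoded by *Tnfrsf4*, prolongs the survival of activated CD4 T cells. It was the most abundant member in both libraries, with 6042 and 7151 reads, or 437.8 and 581.1 CPM. The ratio of 1.34 (95% interval 1.29 to 1.38) exceeded counting error but not 2-fold. *Sdf4*, whose RefSeq span overlaps that of *Tnfrsf4* by 16 bases, had 2645 and 4102 reads, giving a ratio of 1.75 (95% interval 1.67 to 1.84). GITR and OX40, neighbouring genes, therefore differed in size of change. There were 0.312 reads of *Tnfrsf18* for each read of *Tnfrsf4* in control cells (95% interval 0.296 to 0.328) and 0.739 in RV-Cre-transduced cells (95% interval 0.713 to 0.766). These proportions are taken within a library and do not depend on a single scaling factor.

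CD137, encoded by *Tnfrsf9* and induced by T cell activation, had 1714 and 1340 reads, or 124.2 and 108.9 CPM. Its ratio of 0.882 (95% interval 0.821 to 0.948) lay below 1 beyond counting error under TMM scaling, but its log2 ratio went from -0.18 to 0.24 with scaling to *Gapdh*. For each *Tnfrsf9* read there were 1.10 reads of *Tnfrsf18* in control cells and 3.94 after RV-Cre transduction. Most of the span of *Tnfrsf9* overlaps that of *Camta1* on the opposite strand, without shared exons, and *Camta1* had 154 and 89 reads. The costimulatory receptors thus did not move together in these libraries, under this scaling, with *Tnfrsf18* and *Cd27* at about 3-fold, *Tnfrsf4* at 1.34 and *Tnfrsf9* below 1.

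CD30 (*Tnfrsf8*) and HVEM (*Tnfrsf14*) were close to the detection limit. *Tnfrsf8*, an activation-induced receptor, had 8 and 4 reads, giving a ratio of 0.564 with an interval from 0.124 to 2.11, so no difference was detectable at this depth. *Tnfrsf14*, which binds LIGHT and BTLA, had 1 and 7 reads, giving a ratio of 7.90 with an interval from 1.01 to 356.0. With a 99% interval in place of 95% the interval of *Tnfrsf14* included a ratio of 1. Neither member passed the minimum. A count of 0 would allow up to 0.217 and 0.244 CPM in these libraries, taking 3 reads as the limit.

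TNFR1, encoded by *Tnfrsf1a*, is the death domain receptor for TNF. It had 243 and 204 reads, or 17.6 and 16.6 CPM. Its ratio was 0.947 (95% interval 0.783 to 1.15), which counting error alone covers. Its log2 ratio of -0.08 turned positive with scaling to *Gapdh*, quantile and loess normalization and library totals without *Rn45s*. TNFR2, encoded by *Tnfrsf1b*, binds TNF without a death domain and supports regulatory T cells. It had 1300 and 990 reads, or 94.2 and 80.5 CPM, and a ratio of 0.859 (95% interval 0.790 to 0.934), whose log2 value turned from -0.22 to 0.20 with scaling to *Gapdh*. *Tnfrsf1b* had 5.35 reads for each *Tnfrsf1a* read in control cells and 4.85 after RV-Cre transduction, with overlapping intervals of 4.66 to 6.16 and 4.17 to 5.67.

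DR3, encoded by *Tnfrsf25*, is the death domain receptor for TL1A and costimulates T cells. It had 1136 and 1561 reads, or 82.3 and 126.9 CPM, with intervals of 77.6 to 87.3 and 120.6 to 133.3 CPM. The ratio was 1.55 (95% interval 1.44 to 1.68), and it reached the 2-fold threshold with scaling to *Gapdh* alone among the scalings, at a log2 ratio of 1.05. The death domain receptors differed from each other, with 4.67 reads of *Tnfrsf25* per read of *Tnfrsf1a* in control cells (95% interval 4.07 to 5.39) and 7.65 in RV-Cre-transduced cells (95% interval 6.61 to 8.90).

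**Figure D2:**
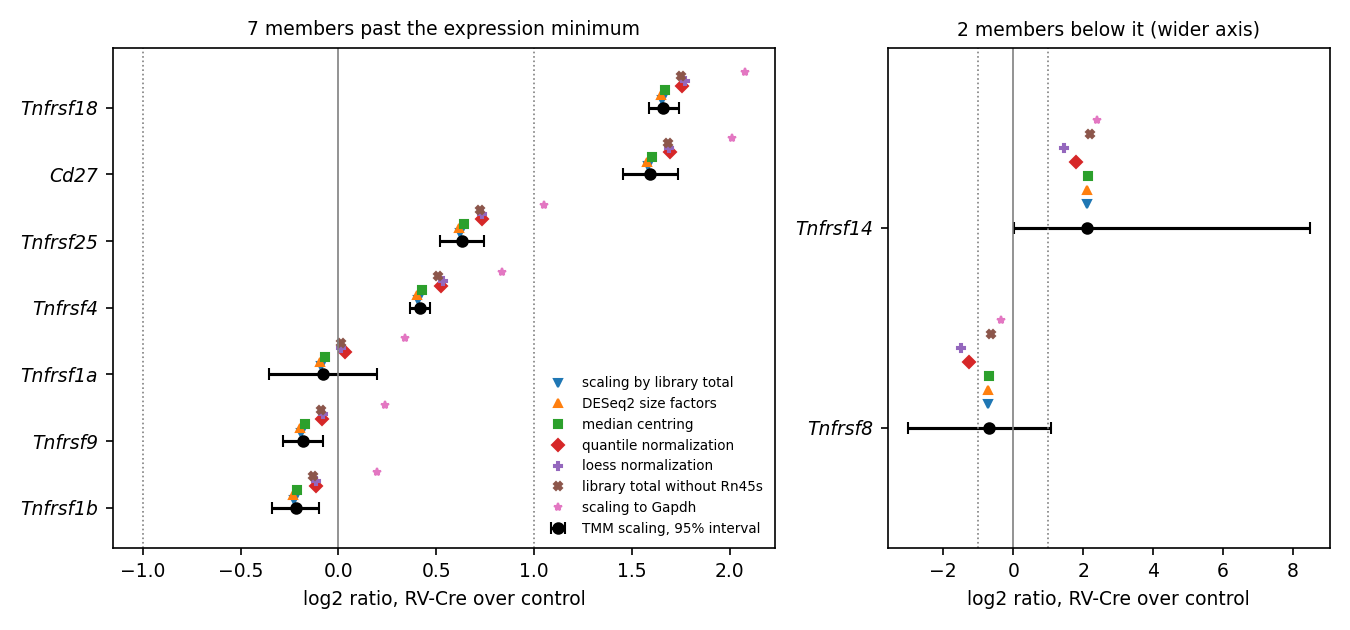
Log2 ratio of RV-Cre over control for the 7 members past the expression minimum (left) and the 2 below it (right, wider axis). Black points are TMM values with exact 95% counting intervals, coloured marks are the other scalings and dotted lines mark 2-fold; *Tnfrsf18*, *Cd27*, *Tnfrsf25* and *Tnfrsf4* stay above 0, while *Tnfrsf9* and *Tnfrsf1b* cross 0 with scaling to *Gapdh* and *Tnfrsf1a* crosses it with 4 of the scalings.

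By the 95% interval, 5 members lay above a ratio of 1 (*Tnfrsf18*, *Cd27*, *Tnfrsf25*, *Tnfrsf4* and *Tnfrsf14*), 2 below it (*Tnfrsf9* and *Tnfrsf1b*) and 2 on both sides of it. Of the 7 members past the minimum, 4 lay above and 2 below. Over all genes past the minimum the interval lay wholly above a ratio of 1 for 36.7% and wholly below it for 38.1%, so leaving a ratio of 1 was common at this depth, and 7 members are too few to be set apart from these shares.

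**Figure D3:**
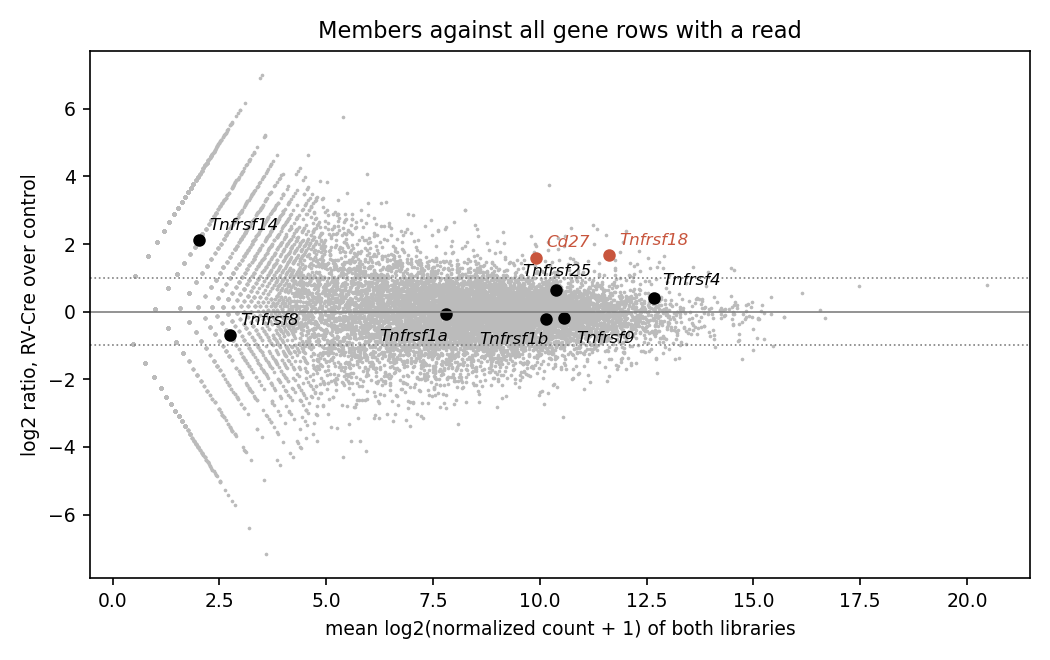
Log2 ratio of RV-Cre over control against the mean log2 value of both libraries for every gene row with a read (grey) and for the members (black, or red where at least 2-fold higher). *Tnfrsf18* and *Cd27* stand at the upper edge of the genes of their level, whereas *Tnfrsf8* and *Tnfrsf14* lie among the scattered genes of few reads.

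The order of the levels changed between the libraries. Since 3′ counting yields reads per transcript rather than per base, levels of different genes were compared as CPM without division by length. In control cells the order was *Tnfrsf4*, *Tnfrsf18*, *Tnfrsf9*, *Tnfrsf1b*, *Tnfrsf25*, *Cd27*, *Tnfrsf1a*, *Tnfrsf8* and *Tnfrsf14*, and among neighbours the Poisson intervals of *Tnfrsf8* and *Tnfrsf14* overlapped. Those of *Tnfrsf18* and *Tnfrsf9* nearly touched, at 130.4 and 130.2 CPM. In RV-Cre-transduced cells *Tnfrsf25* and *Cd27* followed *Tnfrsf18* with 1561 and 1560 reads and overlapping intervals, ahead of *Tnfrsf9* and *Tnfrsf1b*. *Tnfrsf14* then stood above *Tnfrsf8* with overlapping intervals.

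The 9 members together took 12911 and 18102 reads, or 935.6 and 1471 CPM, a normalized ratio of 1.58 (95% interval 1.55 to 1.62). *Tnfrsf4* held 46.8% of these reads in control cells (95% interval 45.9 to 47.7) and 39.5% in RV-Cre-transduced cells (95% interval 38.8 to 40.2). The share of *Tnfrsf18* went from 14.6% (95% interval 14.0 to 15.2) to 29.2% (95% interval 28.5 to 29.9). *Cd27* went from 4.52% to 8.62%. *Tnfrsf25* kept its share at 8.80% and 8.62%, with overlapping intervals. *Tnfrsf9* went from 13.3% to 7.40% and *Tnfrsf1b* from 10.1% to 5.47%, lower shares of a larger total.

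**Figure D4:**
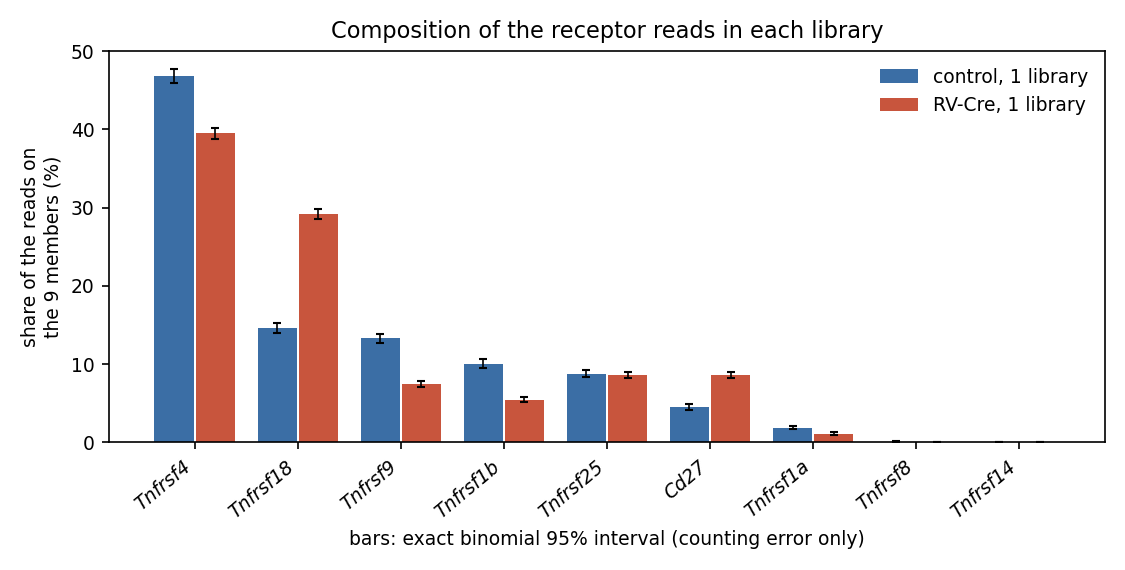
Share of the reads on the 9 members that each of them took in the control library (blue) and the RV-Cre library (red), in percent; error bars are exact binomial 95% intervals. *Tnfrsf18* and *Cd27* take larger shares in the RV-Cre library, at 29.2% and 8.62%, and *Tnfrsf4*, *Tnfrsf9* and *Tnfrsf1b* take smaller ones.

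Of 12 genes listed as ligands and partners of the members, 9 passed the minimum, of which 1 was higher and 3 were lower by 2-fold or more. The 9 include *Ltb*, at a log2 ratio of 0.29, which was not paired with any member. The median log2 ratio of the list, 0.01, turned negative with a log2 minimum of 6, DESeq2 size factors, and quantile and loess normalization. The ligands of both TNF receptors were among the lower ones. *Lta*, which encodes lymphotoxin α, had 4667 and 472 reads, giving a ratio of 0.114 (95% interval 0.104 to 0.125). *Tnf* had 1787 and 686 reads, giving a ratio of 0.433 (95% interval 0.396 to 0.473), with TNF protein added to both cultures. *Cd160*, a partner of HVEM, had 74 and 29 reads and a ratio of 0.442.

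*Tnfsf15*, which encodes the DR3 ligand TL1A, was the higher one, with 10 and 42 reads and a ratio of 4.74 (95% interval 2.34 to 10.6). The ligands of OX40, GITR and CD137, made chiefly by antigen-presenting cells, were all but absent, with 0 and 1 reads for *Tnfsf4*, 1 and 1 for *Tnfsf18* and 1 and 0 for *Tnfsf9*. *Cd70*, the ligand of CD27, had 28 and 25 reads. *Tnfsf8*, the CD30 ligand, had 138 and 169 reads, *Tnfsf14*, which encodes LIGHT, 130 and 75, *Btla* 704 and 731 and *Ltb* 712 and 774.

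Downstream of the receptors, the list of TRAF and cIAP adaptors had 10 genes, all past the minimum, with 0 at least 2-fold higher, 1 lower and a median log2 ratio of -0.34. The lower gene was *Birc3*, which encodes cIAP2, a ubiquitin ligase carried by TRAF2, with 957 and 310 reads and a ratio of 0.366 (95% interval 0.321 to 0.416). *Traf3*, which restrains the noncanonical NF-κB pathway, had most reads of the list at 1393 and 1201. *Traf1*, an adaptor of OX40, GITR and CD137, had 639 and 680 reads. Of 7 genes of the death domain and caspase-8 branch, 0 were at least 2-fold higher or lower, and the median was -0.14. *Cflar*, which encodes the caspase-8 inhibitor cFLIP, had most reads there over both libraries at 1510 and 1850, and *Tradd*, the adaptor of TNFR1 and DR3, had 363 and 403 reads.

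Of 12 genes of the IKK, TAK1 and LUBAC group, all past the minimum, 1 was at least 2-fold higher and 0 lower, with a median of 0.48. That gene was *Map3k14*, which encodes the noncanonical NF-κB kinase NIK, with 342 and 692 reads and a ratio of 2.28 (95% interval 2.00 to 2.61). Of 11 NF-κB subunits and IκB proteins, all past the minimum, 1 was at least 2-fold lower and 0 higher, with a median of 0.07. *Relb*, the subunit of the noncanonical pathway, had 1624 and 698 reads and a ratio of 0.485 (95% interval 0.443 to 0.530). *Nfkbia*, which encodes IκBα, had most reads at 16575 and 15428. Of 7 deubiquitinases and feedback inhibitors, 1 was at least 2-fold lower and 0 higher, with a median of -0.13. *Tnfaip3*, which encodes the NF-κB inhibitor A20, had 363 and 96 reads and a ratio of 0.298 (95% interval 0.236 to 0.375). The medians of the adaptor, death domain and feedback lists turned positive with scaling to *Gapdh*. Relative to *Gapdh*, *Tnf* stood at a ratio of 0.579, *Cd160* at 0.591 and *Relb* at 0.648, no longer 2-fold lower, whereas *Lta*, *Birc3* and *Tnfaip3* stayed below 0.5. Over all pathway lists without the 9 members, 75 of 88 genes passed the minimum, 4 were higher and 8 lower by 2-fold or more, and the median was 0.01. Over all genes past the minimum, 14.2% were higher and 12.3% lower, so such changes were no more frequent in the pooled lists. Single lists could differ, with 3 of 9 ligands and partners lower. Among the 7934 abundant genes 4.39% were higher and 8.86% lower, both below the pooled shares, although the lists were not limited to abundant genes. No list was tested against either background.

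**Figure D5:**
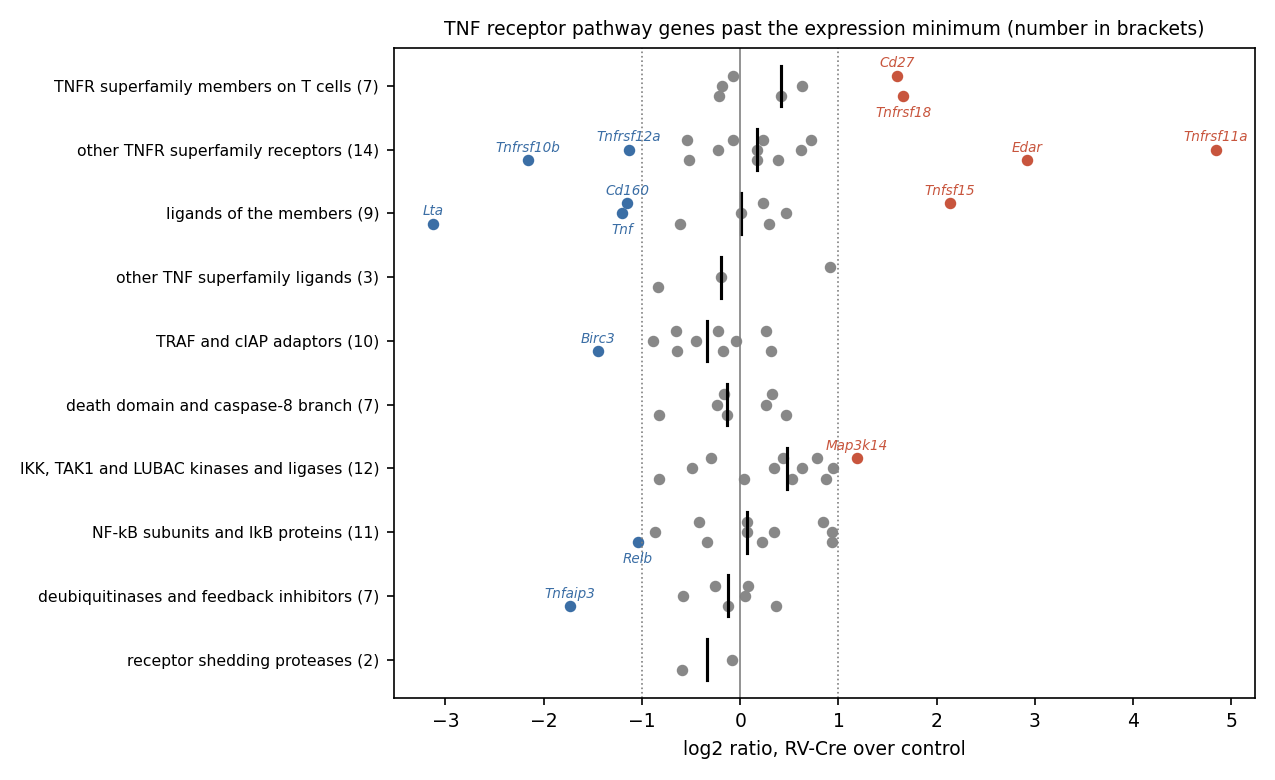
Log2 ratio of RV-Cre over control under TMM scaling for the genes of each list past the expression minimum, with the number of genes in brackets; red and blue points are at least 2-fold higher or lower, black bars are list medians and dotted lines mark 2-fold. *Lta*, *Tnf*, *Birc3*, *Relb* and *Tnfaip3* lie on the lower side, while *Tnfrsf18*, *Cd27*, *Tnfsf15* and *Map3k14* lie on the upper side.

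Of 19 further receptors of the superfamily, 14 passed the minimum, 2 were higher and 2 lower by 2-fold or more, with a median log2 ratio of 0.17. *Tnfrsf10b*, the receptor of the death ligand TRAIL, had 454 and 89 reads and a ratio of 0.221 (95% interval 0.174 to 0.278). *Tnfrsf12a*, the receptor of TWEAK, had 26 and 10 reads and a ratio of 0.434 (95% interval 0.187 to 0.930), or 0.580 relative to *Gapdh*. *Tnfrsf11a*, which encodes RANK, had 0 and 26 reads, and the exact 95% interval of its ratio began at 7.40. *Edar*, the ectodysplasin receptor, had 4 and 33 reads and a ratio of 9.31 (95% interval 3.31 to 36.2). *Tnfrsf26* had most reads of the list at 746 and 461.

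*Fas*, the best-known death receptor of T cells, had 164 and 190 reads, and *Cd40* 84 and 123 reads.

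Since GITR and OX40 are abundant on regulatory T cells, 8 markers of that cell type are given beside them. All passed the minimum, 7 had a log2 ratio below 0, and their median was -0.31, which became 0.11 relative to *Gapdh*, with 4 of 8 below 0. Their sum was 1673 CPM in control and 1022 CPM in RV-Cre-transduced cells. Most of it came from *Il2ra* (956.5 and 701.1 CPM) and *Ctla4* (473.2 and 114.5 CPM). *Foxp3*, the factor that defines regulatory T cells, had 830 and 650 reads, giving a ratio of 0.884 (95% interval 0.796 to 0.980). The paper reports markedly more FOXP3 in RV-Cre-transduced Th17 cells, by flow cytometry and by RT-qPCR normalized to *Gapdh*. In the libraries used here *Gapdh* itself had a lower ratio of 0.748 (95% interval 0.676 to 0.828). Relative to *Gapdh*, *Foxp3* was therefore higher after RV-Cre transduction, although the 2 intervals overlap. *Il2ra* had 13199 and 8627 reads, *Ikzf2* 340 and 188, and *Ctla4* 6530 and 1409, the last at least 2-fold lower. *Lrrc32*, with 56 and 208 reads and a ratio of 4.19 (95% interval 3.11 to 5.74), was at least 2-fold higher. Activated T cells of other kinds also express several of these markers, and the part of regulatory T cells in the receptor values was not tested.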

How the data were processed

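RNA-seq of 1 control and 1 RV-Cre library was analysed, with 1 table for each. The authors prepared QuantSeq 3′ libraries from 500 ng of total RNA and deposited raw counts of reads per gene symbol, without normalization. The submitters' processing notes name bcl2fastq 2.20.0.422, Bowtie2, bedtools and the build mm10, with no role or order. The counting parameters, strand setting and gene annotation are not given in the sources used here. The tables list 23282 rows, 79 of which share a symbol with another row, none of them a member or a listed gene.

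Depth was 13799264 and 12305010 reads. Whole tables were scaled with edgeR 4.0.16 (TMM) in R 4.3.3, with size factors of 1.06 and 0.941, and a pseudocount of 1 was added before log2. Intervals were exact (scipy 1.17.1), at 95%, and cover counting error only, with each read taken as independent. PCR reads counted without molecular identifiers are not independent molecules, so the true counting error may be wider. Counting error in the text means these intervals. No test across genes was run, with 1 library per condition. The code was checked on simulated Poisson counts of these library sizes, with changes set well beyond the 2-fold threshold. There, 200 of 200 changed genes were recovered and 66 unchanged genes were called. Of the 11699 genes past the minimum, changed ones included, 95.6% had an interval that covered the true ratio. Such counts hold no variation between cultures, so these rates do not carry over to the libraries.

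Named genes were all 9 members, *Ptk2*, the ligands and markers, each listed gene changed at least 2-fold, otherwise the gene of most reads in a list, and the 3 genes nearest *Tnfrsf18*. *Traf1*, *Traf3*, *Tradd*, *Nfkbia*, *Tnfrsf26*, *Fas*, *Cd40*, the genes of the closing observations and those overlapping members were added, and the promoters shown and the level-matched backgrounds chosen, after their values were seen. The members and lists were chosen with earlier results of these data known. Alternatives were other minimums, folds, pseudocounts and scalings (DESeq2 1.42.0, limma 3.58.1). One marker gene of the lists is not reported here.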

Additional observations from a re-analysis of the deposited data

How the results depend on the processing

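No paired analysis was possible because the comparison rests on 1 library per condition, and no library could be left out. *Tnfrsf18* and *Cd27* were at least 2-fold higher, and 0 of the members past the minimum at least 2-fold lower, under every minimum, fold, pseudocount and scaling run. The count of higher members became 3 with no minimum (with *Tnfrsf14*), and with a fold threshold of 1.5 or scaling to *Gapdh* (with *Tnfrsf25*). The member median of 0.42 moved beyond counting error to 0.51 with library totals without *Rn45s*, 0.52 with quantile normalization, 0.54 with loess normalization and 0.84 with scaling to *Gapdh*. *Gapdh* had only 956 and 634 reads, at a ratio of 0.748, whereas *Actb* had 148050 and 219754 reads, at a ratio of 1.68. Scaling to *Gapdh* shifted the median of all genes by 0.44, and relative to that median the members stood at 0.41. Signs that turned only with this scaling rest on that single gene of modest level. Over all genes, 1720 were higher and 1491 lower, 53.6% of the changed genes being higher. With *Gapdh* scaling they were 2960 and 780 (79.1% higher), with no minimum 3265 and 2441, with a log2 minimum of 6 734 and 1067 (40.8% higher), with a fold of 1.5 2847 and 2777, and with a fold of 3 1008 and 669. Over the 8 scalings the log2 ratio of *Tnfrsf18* ran from 1.65 to 2.08, of *Cd27* from 1.58 to 2.01, of *Tnfrsf25* from 0.62 to 1.05, of *Tnfrsf4* from 0.40 to 0.84, of *Tnfrsf9* from -0.19 to 0.24, of *Tnfrsf1b* from -0.23 to 0.20 and of *Tnfrsf1a* from -0.09 to 0.34. Below the minimum, *Tnfrsf8* ran from -1.50 (loess) to -0.35 and was over 2-fold lower with quantile (-1.27) and loess normalization, and *Tnfrsf14* ran from 1.45 to 2.40. Among single values, 76 member ratios stayed within counting error, 13 moved beyond it and 1 interval (*Tnfrsf14* at 99%) came to include a ratio of 1. Of the pathway list medians, 70 stayed within the spread of counting error and 11 moved, 7 of these with *Gapdh* scaling, which shifts all genes alike. Library totals without *Rn45s*, also a single scaling factor, took the NF-κB list from 0.07 to 0.16 and shifted the median of all genes by 0.099. For the others the cause was not tested. With a log2 minimum of 6, fewer genes entered some lists.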

Other observations

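Of 8 further TNF superfamily ligands, 3 passed the minimum, with a median log2 ratio of -0.19 that turned positive with a log2 minimum of 6 and with scaling to *Gapdh*. The number that differed by 2-fold or more was 0. *Cd40lg*, through which helper T cells stimulate B cells, had 132 control and 221 RV-Cre reads, at a ratio of 1.89 (95% interval 1.52 to 2.36). *Tnfsf10*, which encodes TRAIL, the ligand of *Tnfrsf10b*, had 75 and 58 reads, at a ratio of 0.873 (95% interval 0.609 to 1.25), whereas its receptor was at 0.221. *Tnfsf11*, which encodes the RANK ligand, had 25 and 12 reads. *Fasl*, the ligand of *Fas*, had 8 and 0 reads, with an exact 95% interval of the ratio that ended at 0.661, and did not pass the minimum. *Tnfsf13b*, which encodes BAFF, had 0 and 6 reads.

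The proteases that shed these receptors from the cell surface were *Adam17*, with 1103 and 921 reads and a ratio of 0.942 (95% interval 0.862 to 1.03), and *Adam10*, with 714 and 420 reads and a ratio of 0.664 (95% interval 0.587 to 0.750). Neither was at least 2-fold changed. Shed receptor protein was not measured by these counts.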
